A study of Rattus norvegicus with 6 samples.

Results

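Transcripts of 5 growth-responsive transcription factors, Fos, Jun, Junb, Egr1 and Myc, were followed in rat bone marrow stromal cells (BMSCs) after 7 days in 1% O2. BMSCs are adherent marrow cells from which osteoblasts, adipocytes and chondrocytes can form. The genes were taken by Ensembl ID, and all 5 IDs were found among the 32883 rows of the deposited count table. The pairs used were Fos with ENSRNOG00000008015, Jun with ENSRNOG00000026293, Junb with ENSRNOG00000042838, Egr1 with ENSRNOG00000019422 and Myc with ENSRNOG00000004500. All 5 symbols occur in the RefSeq gene table at hand, but that table gives an Ensembl ID for 0 of its 47357 genes. The pairs of ID and symbol are therefore those supplied with the gene list and could not be checked against a table.

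Both groups were primary rat BMSCs grown for 7 days in α-MEM with 10% FBS, with 3 messenger RNA libraries each. Hypoxia samples were kept at 1% O2 in a tri-gas incubator, and Control samples were labelled normal, with no oxygen percentage given. The labels name no strain, sex, age or passage, and no animal or culture of origin for any sample. The p-values thus rest on spread between samples that may be technical repeats. The extraction text speaks of muscle, while all other labels give BMSCs, and the cell type could not be checked because the marker genes could not be named from their IDs.

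Immediate early genes are genes whose transcription starts within minutes of a signal, without new protein synthesis. Fos, Jun and Junb encode basic leucine zipper proteins that pair to form AP-1, and Egr1 encodes a zinc finger factor that binds GC-rich DNA. Serum, growth factors, mechanical load and stress switch these genes on through MAP kinases acting on SRF, ternary complex factors, CREB and AP-1 itself, and the transcripts are usually short-lived. MYC pairs with MAX on E-boxes and promotes ribosome production, metabolism and entry into the cell cycle. In bone-forming cells, AP-1 proteins take part in control of proliferation and matrix genes. The medium was changed every other day per the labels, and the time from the last change to harvest is not given there.

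The promoters of 2 of the 5 genes, Egr1 and Junb, were in the RefSeq promoter table (build GRCr8). They are shown because they were the members the table holds. Egr1 had the largest rise among the 5 genes and Junb the only fall. Each sequence is the plus strand, the coding strand of both genes, for the 250 bases before the annotated start, which are chr18:26736828-26737077 for Egr1 and chr19:40080876-40081125 for Junb. Capitals mark matches on either strand to a set of motifs named in the next paragraph.
Egr1: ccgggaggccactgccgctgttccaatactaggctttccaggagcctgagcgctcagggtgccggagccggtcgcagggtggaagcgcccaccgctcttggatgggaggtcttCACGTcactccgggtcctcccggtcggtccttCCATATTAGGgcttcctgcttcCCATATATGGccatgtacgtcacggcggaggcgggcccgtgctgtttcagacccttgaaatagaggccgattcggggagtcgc
Junb: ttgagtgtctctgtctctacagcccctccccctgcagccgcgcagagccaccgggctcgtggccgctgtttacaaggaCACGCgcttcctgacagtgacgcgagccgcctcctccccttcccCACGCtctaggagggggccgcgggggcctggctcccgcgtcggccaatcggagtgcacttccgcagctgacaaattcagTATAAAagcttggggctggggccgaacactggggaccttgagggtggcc

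The Egr1 window held 2 CArG boxes, the core of the serum response element bound by SRF, at -105 to -96 and at -83 to -74 from the start. A CArG box occurred in 1.5% of the 33469 rat promoter windows of this length, and the Junb window held 0. Egr1 also held 1 match to ACGTG, the core of hypoxia response elements, on the minus strand at -137 to -133, which 16.6% of all windows hold. The Junb window held 2 matches to GCGTG, the other form of that core, on the minus strand at -172 to -168 and -128 to -124, found in 25.9% of all windows. It also held a TATA box, TATAAA, at -49 to -44, present in 12.9% of windows. Neither window contained the cAMP response element TGACGTCA, the AP-1 site TGANTCA, the SP1 box GGGCGG, the E-box CACGTG or the EGR site GCGNGGGCG. All motifs were searched on both strands, and only exact matches were counted. Near matches were thus passed over. An example is TCACGTCA in Egr1, which spans the ACGTG match and differs by 1 base from TGACGTCA. The search described letters only, and binding was not measured here.

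After 7 days at 1% O2, Egr1 was 2.05-fold and Myc 1.86-fold higher than in control cells. Jun rose 1.18-fold and Fos 1.26-fold, while Junb fell by 0.52 on the log2 scale, a 1.44-fold lower level. All 5 genes passed the filter on low counts and were called changed in a fit over 12702 genes. The call is a Benjamini-Hochberg adjusted p below 0.05 in the quasi-likelihood test of edgeR, with 3 libraries per group. This threshold was passed by 45.0% of all tested genes, 23.1% higher and 21.9% lower, so passing it does not set the 5 genes apart. Their median absolute log2 fold change was 0.52, against 0.23 for all tested genes, and their median signed change was 0.33, against 0.0025. The CPM of the groups did not overlap for any of the 5 genes, as was the case for 55.5% of tested genes. CPM here are read counts set to a common library size, scaled between libraries by TMM factors. Culture or preparation batches are not given in the labels, and a batch that followed the groups could not be told apart from oxygen. In bulk RNA, fewer cells with a transcript and less of it per cell cannot be told apart either.

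**Figure D1:**
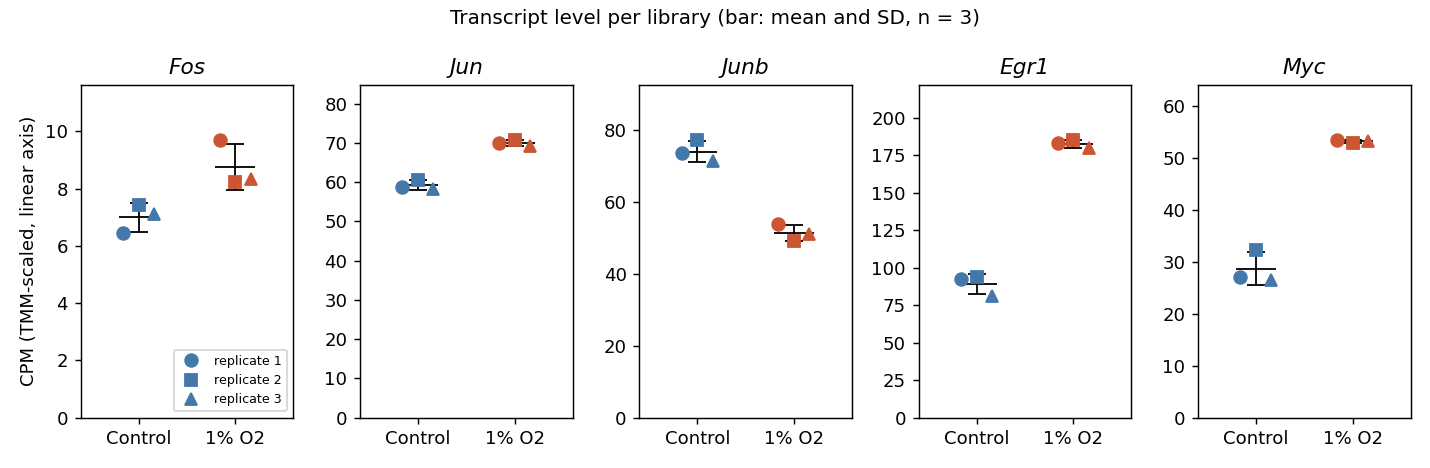
Level of each gene in CPM (linear axes from 0) in the 3 control and 3 1% O2 libraries, with the mean and SD in black. The groups did not overlap for any gene; Egr1 lay at 81.3 to 93.6 CPM in controls and 179.7 to 184.8 CPM at 1% O2, and Junb is the only gene with the 1% O2 libraries below the controls.

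Egr1 showed the largest change of the 5. The control libraries gave 92.7, 93.6 and 81.3 CPM, and the 1% O2 libraries gave 183.1, 184.8 and 179.7 CPM. The lowest value at 1% O2 was thus 1.92 times the highest control value. The means were 89.2 ± 6.9 and 182.6 ± 2.6 CPM (SD, n = 3 each), from 1118 to 1285 reads per control library and 2581 to 3289 at 1% O2. The log2 fold change was 1.03 ± 0.05 (SE), with a 95% interval of 0.92 to 1.15 and an adjusted p of 3.55e-09 by edgeR. Among all tested genes, 336 passed the threshold with a rise at least as large, Egr1 included. By absolute change Egr1 stood at percentile 95.6 of tested genes, and by average level at percentile 90.4.

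Myc, the E-box factor of growth and ribosome production, had control values of 27.0, 32.3 and 26.5 CPM and values at 1% O2 of 53.3, 52.9 and 53.3 CPM. Control replicate 2 was above the other controls, yet well below every 1% O2 library. The means were 28.6 ± 3.2 and 53.2 ± 0.3 CPM (SD, n = 3 each), which gave a log2 fold change of 0.89 ± 0.07 (SE) at an edgeR adjusted p of 3.35e-07. The 95% interval of the change ran from 0.74 to 1.05, and 469 genes, Myc included, rose by at least as much past the threshold. Without Control replicate 2 the log2 fold change of Myc was 0.99, and without Control replicate 3 it was 0.84. The 1% O2 libraries held 765 to 958 Myc reads, for which counting alone gives a coefficient of variation of 3.49%, while the observed value was 0.48%. With only 3 libraries, an SD below the counting error understates the spread that repeated libraries would show.

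The 3 AP-1 genes did not move in one direction. Junb, an AP-1 subunit that activates many targets less strongly than Jun, gave 73.4, 77.1 and 71.2 CPM in controls. At 1% O2 its values were 53.8, 49.2 and 51.0 CPM, all below the lowest control. The means were 73.9 ± 3.0 and 51.3 ± 2.3 CPM (SD, n = 3 each). The log2 fold change of Junb was -0.52 ± 0.06 (SE), with a 95% interval of -0.65 to -0.40 and an adjusted p of 5.77e-06 by edgeR. Past the threshold, 842 genes, Junb included, fell by at least as much.

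Jun, the AP-1 subunit that can pair with itself or with FOS proteins, gave 58.9, 60.7 and 58.2 CPM in controls and 69.9, 70.7 and 69.2 CPM at 1% O2. At 1% O2 the coefficient of variation, 1.04%, was below the 3.04% that counting alone gives, so this SD understates the spread. The groups were separate, with means of 59.3 ± 1.3 and 69.9 ± 0.7 CPM (SD, n = 3 each). Jun thus rose by 0.24 ± 0.05 (SE) on the log2 scale, with a 95% interval of 0.13 to 0.35 and an adjusted p of 0.00171 by edgeR. A change of this absolute size was ordinary among the tested genes, at percentile 52.5. The size depended on the scaling of the libraries. With library totals alone, which moved the median log2 fold change of all genes from 0.0025 to -0.09, the value for Jun was 0.15 with an adjusted p of 0.0273 by edgeR. That is 1.59 times smaller on the log2 scale.

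Fos, whose protein needs a JUN partner to bind DNA, had the fewest reads and the least certain change. Control libraries held 88, 102 and 98 Fos reads, and 1% O2 libraries held 174, 120 and 120. In CPM the controls were 6.45, 7.43 and 7.12 and the 1% O2 libraries 9.69, 8.25 and 8.35. The gap between the highest control and the lowest 1% O2 library was smaller than the range within either group. The log2 fold change was 0.33 ± 0.12 (SE), with a 95% interval of 0.08 to 0.58 and an adjusted p of 0.0351 by edgeR. Relative to the summed TMM-scaled library sizes, the ratio of summed reads was 1.26. Counting error alone leaves that ratio between 1.08 and 1.47 (exact 95% interval).

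The call for Fos did not hold in several fits, although the direction was the same in all 14 alternatives run. Without Hypoxia replicate 1, the library with the highest Fos level, the log2 fold change was 0.24 and the adjusted p 0.165 by edgeR. Without Control replicate 1 these were 0.28 and 0.119, and without Control replicate 3 they were 0.34 and 0.0662. DESeq2 gave 0.33 with an adjusted p of 0.164, and library totals alone gave 0.24 at an edgeR adjusted p of 0.109. The other 4 genes passed the threshold in all 14 alternatives.

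**Figure D2:**
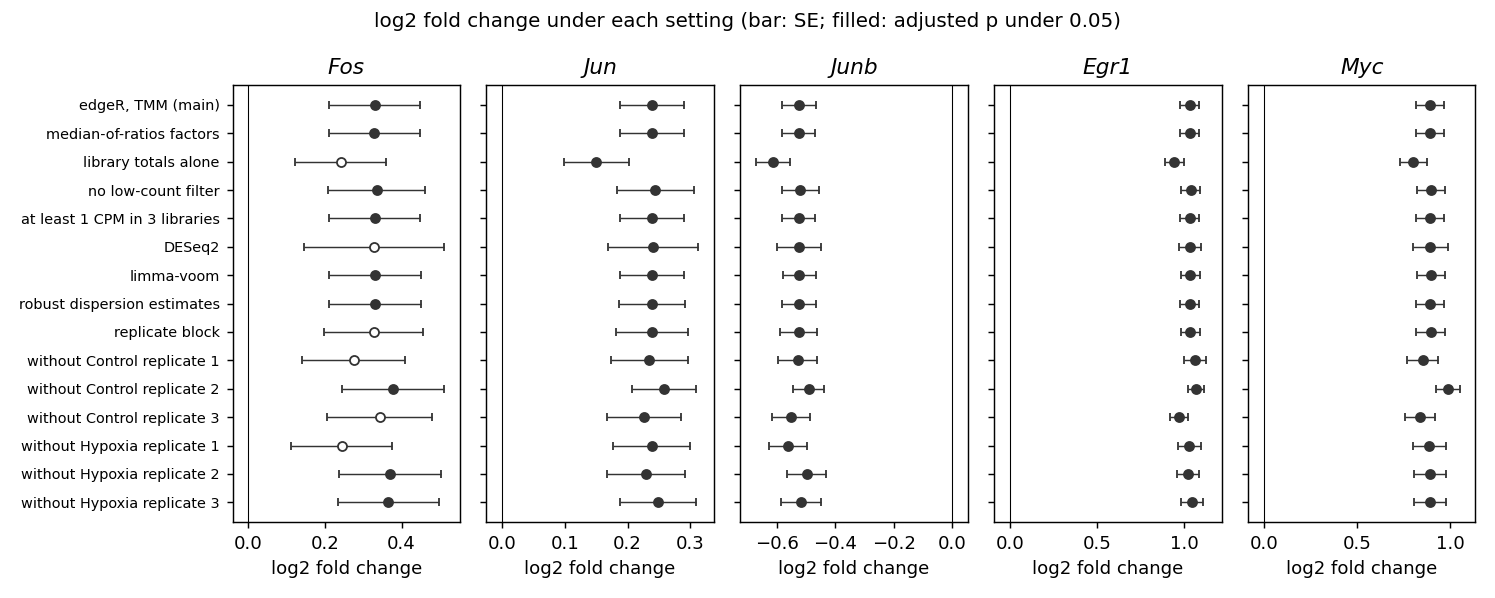
log2 fold change (1% O2 against control) of each gene under the main fit and 14 alternatives, with bars for the SE and filled points for an adjusted p under 0.05; each panel has its own horizontal scale and a line at 0. Fos has 6 open points and the other 4 genes have 0.

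**Figure D3:**
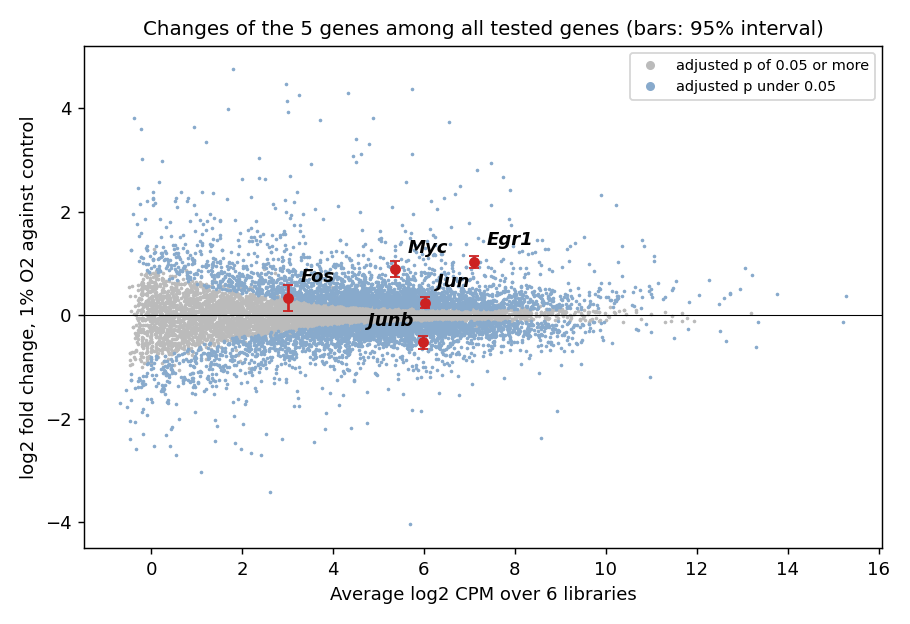
log2 fold change against average log2 CPM for the 12702 tested genes, with the 5 genes in red and their 95% intervals. Egr1 (1.03) and Myc (0.89) lie above most tested genes, Jun (0.24) and Fos (0.33) closer to 0, and Junb (-0.52) below 0.

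Ratios of reads between 2 of the genes within a library do not depend on scaling between libraries. Gene lengths also affect them, so they were compared between libraries only. All 10 pairs were compared by an exact two-sided permutation test over the 6 libraries, in which 3 against 3 cannot give a p below 0.1. For 8 of the pairs the groups did not overlap, which gave that smallest p = 0.1 in the exact test and 0.125 after Benjamini-Hochberg adjustment. No pair could thus pass a threshold of 0.05. The ratios were built from the same few genes, each with separate groups on its own, so the pairs are not independent results. Among single tested genes, 55.5% had groups that did not overlap. The share among pairs of other tested genes was not counted.

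The read ratio of Jun to Junb was 0.801, 0.787 and 0.817 in controls and 1.30, 1.44 and 1.36 at 1% O2. The ratio was higher in each 1% O2 library than in any control. The log2 ratio moved from -0.32 ± 0.03 to 0.45 ± 0.07 (SD, n = 3 each), a 1.70-fold shift. The ratio of Fos to Junb rose as well, from 0.0878, 0.0964 and 0.1 to 0.180, 0.168 and 0.164. This was a 1.80-fold difference in means of log2 ratios, again with no overlap between the groups.

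Fos and Jun did not separate from each other. Their read ratio was 0.110, 0.122 and 0.122 in controls and 0.139, 0.117 and 0.121 at 1% O2, so the groups overlapped. The log2 ratio differed by 0.08 between groups, with SDs of 0.09 and 0.13 (exact permutation p = 0.6, n = 3 each). This small difference moved with single libraries, to 0.009 without Hypoxia replicate 1, 0.03 without Control replicate 1 and 0.13 without Hypoxia replicate 2. Egr1 and Myc likewise had overlapping ratios, at 3.43, 2.90 and 3.06 in controls and 3.43, 3.50 and 3.37 at 1% O2. Their log2 ratio differed by 0.14 (exact permutation p = 0.2, n = 3 each). The overlap lay between Control replicate 1 and Hypoxia replicate 3. Without Control replicate 1 the groups were apart, with a difference of 0.20 (exact permutation p = 0.1, the smallest that 3 against 2 libraries allow). Without Hypoxia replicate 3 the groups were barely apart, and the difference was 0.15 (exact permutation p = 0.2). The nearest ratios were then 3.433 in Hypoxia replicate 1 and 3.428 in Control replicate 1. Without Control replicate 2 the difference was 0.08 (exact permutation p = 0.2). These p-values do not show that the genes of either pair changed equally.

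The widest shifts were those of Junb against Egr1 and against Myc. The ratio of Junb to Egr1 was 0.792, 0.823 and 0.877 in controls and 0.294, 0.266 and 0.284 at 1% O2, a 2.95-fold fall in means of log2 ratios. Junb to Myc went from 2.72, 2.39 and 2.68 to 1.01, 0.931 and 0.958, a 2.69-fold fall. Jun and Fos, which rose less than Egr1 and Myc, lost ground to both. The log2 ratio of Jun to Egr1 changed by -0.80 at 1% O2 and that of Jun to Myc by -0.66. For Fos the same shifts were -0.71 and -0.58.

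**Figure D4:**
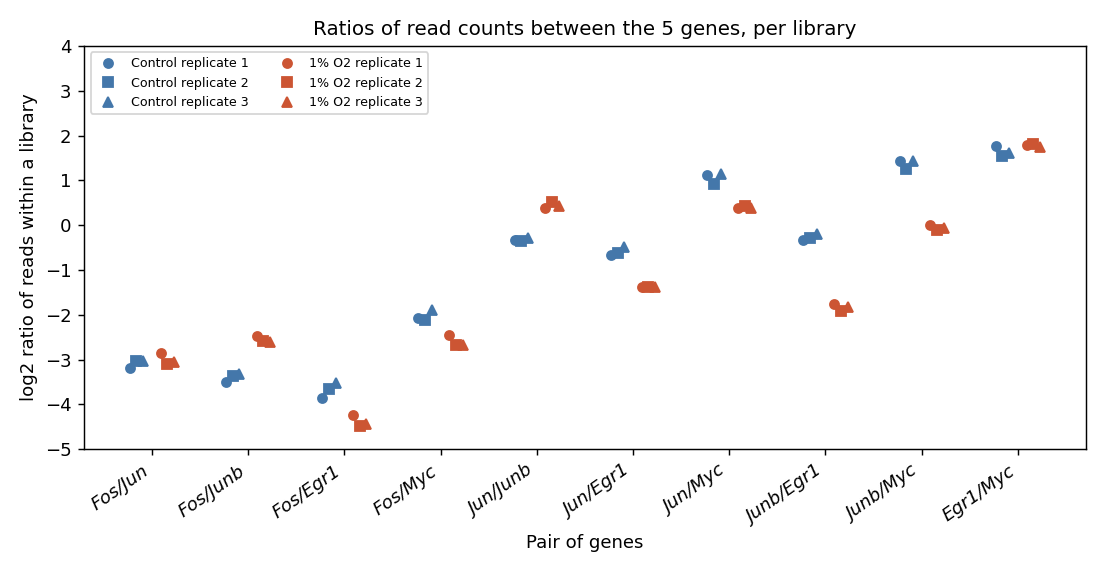
log2 ratio of read counts between each of the 10 pairs of genes, per library (controls in blue, 1% O2 in orange, symbols for replicate numbers). The groups overlap for Fos/Jun and Egr1/Myc and are apart for the other 8 pairs; the mean log2 Jun/Junb ratio was -0.32 in controls and 0.45 at 1% O2.

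The spread among the 3 control columns differed between the genes. Myc varied most, with a range of 20.1% of its mean and a coefficient of variation of 11.1%, where counting alone gives 5.07%. Egr1 was also above its counting error, at 7.72% against 2.87%, and its low value was in Control replicate 3. Junb was near its counting error, at 3.99% against 3.14%. Fos and Jun varied no more than counting gives, at 7.17% against 10.2% and at 2.16% against 3.51%. The SD of log2 CPM over controls stood at percentiles 67.8 for Myc, 52.9 for Egr1, 47.6 for Fos, 22.1 for Junb and 7.9 for Jun among tested genes.

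All 5 genes had their highest control value in Control replicate 2. Its log2 CPM lay above the mean of the other controls by 0.27 for Myc, 0.13 for Fos, 0.11 for Egr1, 0.09 for Junb and 0.05 for Jun. The median of all tested genes was 0.0086 on the same measure. Among tested genes these deviations stood at percentiles 91.9 for Myc, 75.5 for Fos, 71.4 for Egr1, 67.7 for Junb and 59.2 for Jun. The share of all tested genes with their highest or lowest control value in a given library was not counted. In Control replicate 3, 4 of the 5 genes had their lowest control value, and Fos had it in Control replicate 1. Among the 1% O2 libraries no one library was highest for all, with 3 genes highest in replicate 1 and 2 in replicate 2. There Fos in replicate 1 lay 0.22 above the mean of the other libraries, and Junb 0.10 above. The deviations of Jun, Egr1 and Myc within the 1% O2 group were at most 0.034 in size. For each of them the coefficient of variation in that group was below that from counting alone. Leaving out Control replicate 2, the highest control for all 5 genes, lowers their control means by construction. The 4 rises were then larger, with log2 fold changes of 1.07 for Egr1, 0.99 for Myc, 0.26 for Jun and 0.38 for Fos. The fall of Junb was smaller, at -0.49.

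The tested genes most like each factor were found by Pearson's r of log2 CPM over the 6 libraries. The 5 genes share their libraries and the step between groups sets most of this measure, so it is a description only. For Fos the closest was ENSRNOG00000022934 (r = 0.994), which went from 64.4 ± 3.6 to 78.7 ± 6.6 CPM (SD, n = 3 each). For Jun it was ENSRNOG00000006304 (r = 0.999), from 117.6 ± 3.8 to 152.1 ± 2.2 CPM. For Junb it was ENSRNOG00000017359 (r = 0.9996), which went from 434.5 ± 16.2 down to 311.5 ± 12.1 CPM. The closest genes of Egr1 (r = 0.999) and Myc (r = 0.9996) also rose; their IDs are left out because at most 2 unnamed IDs that rose are printed. That of Egr1 had a log2 fold change of 1.00 and that of Myc one of 0.22, well under the 0.89 of Myc itself. An r of at least 0.95 was reached by 80 tested genes with Fos (0.63%) and by 852 with Jun (6.7%). For Junb the number was 1032 (8.1%), for Egr1 949 (7.5%) and for Myc 847 (6.7%). Fos had the fewest reads, with a coefficient of variation from counting alone of 10.2% in controls and 8.64% at 1% O2. Whether that lowers its r was not tested.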

How the data were processed

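The authors deposited unnormalized counts of reads for each rat Ensembl gene ID. HISAT2, featureCounts, DESeq2 and build rn6 are named in the submitters' processing notes. The strand setting is not given in the sources at hand, nor is the annotation release. Libraries came from a stranded mRNA kit, per the labels' protocols. On the RefSeq assembly GRCr8, 0 other genes overlap any of the 5. Reads counted to genes came to 13273781 to 18533675 per library.

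Counts were analysed with edgeR 4.0.16 (filterByExpr defaults, TMM, quasi-likelihood F-test, 1 term for group) in R 4.3.3. The 12702 tested genes were adjusted together by Benjamini-Hochberg, threshold 0.05. The SE is the log2 fold change over the square root of F. A prior count of 2 was used for log2 CPM. Alternatives were other scalings and filters, limma-voom (limma 3.58.1), DESeq2 1.42.0, robust dispersions, a replicate block and each library left out. The genes and motifs were chosen with earlier results of these data known, and all 5 genes were named whatever their values. Planned lists of related and marker genes were not run, because the IDs could not be named.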

Additional observations from a re-analysis of the deposited data

How the results depend on the processing

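The counts of changed (5718), higher (2932) and lower genes (2786) stayed within 1.5 times in all 14 alternatives, at 4408 to 6071, 2084 to 3123 and 2100 to 3987. With library totals alone 2084 genes were higher and 3987 lower. The log2 fold changes over the alternatives were 0.15 to 0.26 for Jun, -0.61 to -0.49 for Junb, 0.94 to 1.07 for Egr1 and 0.80 to 0.99 for Myc, with adjusted p at most 0.0273 in any fit. Fos ranged from 0.24 to 0.38, with adjusted p of 0.0206 to 0.165, and missed the threshold in 6 of 14. These were library totals alone (0.24), DESeq2 (0.33), the replicate block (0.33, adjusted p = 0.0637 by edgeR) and 3 of 6 fits with a library left out (0.24 to 0.38 over all 6). The replicate block, which assumes that same-numbered libraries are paired, called 5295 genes. The labels state no pairing, and deviations of same-numbered libraries correlated at -0.044, -0.051 and 0.005. The 10 log2 read ratios kept their sign when 0.5 reads were added or a library was left out; the ratio of Fos to Jun came down to 0.009 in one such case. At 88 to 174 reads per library, counting limits the precision for Fos. Alternatives for lists of related genes were left out, as no table names their IDs.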
